A study of Mus musculus with 2 samples.

Results

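The developmental homeobox and T-box factors described here were the protein-coding genes whose symbol names a numbered gene of the Pax, Lhx, Dlx, Irx, Tbx, Msx, Emx, Otx, Gsx, Nkx and sine oculis (Six2, Six3 and the like) families, leaving out Pax4 and Nkx2-2. The mm9 annotation held 69 such genes of 22284 protein-coding genes, comprising 13 Nkx, 13 Tbx, 8 Lhx, 8 Pax, 6 Dlx, 6 Irx, 6 sine oculis, 3 Msx, 2 Emx, 2 Gsx and 2 Otx genes. The names chose the members, and no measured value entered the choice.

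These genes encode DNA-binding factors that lay out the body plan and fix the identity of tissues in the embryo. The homeodomain, shared by the Dlx, Emx, Gsx, Irx, Lhx, Msx, Nkx, Otx and sine oculis factors and by part of the Pax factors, reads short AT-rich sites, the paired domain marks the Pax factors, and the T-box is the DNA-binding domain of the Tbx factors. In cells of a lineage that does not use them, many of these genes are known to be held silent by Polycomb complexes at CpG-rich promoters. A few have known roles in gut epithelium, such as Pax6 in enteroendocrine cells.

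Open chromatin was mapped by ATAC-seq, which relies on a transposase that inserts into accessible DNA, in enteroids grown from ileal crypts of mice aged 4 months of mixed C57Bl6/129sv strain. Taf4, which belongs to the TFIID complex that starts transcription at promoters, was inactivated by a tamoxifen-inducible Cre driven by the villin promoter, which is active in intestinal epithelium, in enteroids carrying floxed Taf4 alleles (Taf4 lox/lox::VilCreERT2), and control enteroids carried the floxed alleles without the Cre. Both cultures were exposed to 1 µM 4-hydroxytamoxifen for 3 days, so the drug was common to both groups. With 1 library for each genotype there was no measure of the spread between cultures, so no difference between genotypes was tested, and the number of animals behind each culture was not given in the sources used here.

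The control list held 90445 peaks and the Taf4-inactivated list 71282. A background level solved from the fold and p of the peaks was 12.1 in control and 7.35 in Taf4-inactivated, a ratio of 1.65. Read numbers were not given, so this level stands in for depth, and it would also rise with more reads outside peaks. The weakest peaks had a fold of 1.32 in control and 1.40 in Taf4-inactivated. Of 10 markers of intestinal epithelium, 8 had a start site peak in control, all but Fabp1 and Krt20, and 10 had one in Taf4-inactivated. Peaks were also found at 4 of 7 mesenchyme markers in both lists, with Acta2, Col3a1 and Pdgfrb at none, and their median fold percentile was 63.5 in control and 31.7 in Taf4-inactivated, against 89.7 and 76.3 for the epithelial markers. Of 4 immune markers 1 and 0 had a peak in control and Taf4-inactivated, of 4 neural markers 3 and 2, and of 3 endothelium markers 2 and 1. An open promoter is no measure of expression, and the part of such cells in the results below was not tested. In a bulk library, fewer cells with an open site and less opening per cell cannot be told apart.

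Promoter sequences of 5 members are shown because they span the outcomes described below, and because CpG content did not sort them. Each is the 250 bases before the 5′-most annotated start site, from the mm9 genome, on the strand of the gene, with CpG dinucleotides in capitals. Tbx3, a repressor needed in limb and mammary gland, had a high-ranking start site peak in both lists, and its sequence (chr5:120120428-120120677, plus strand) holds 24 CpG. Nkx2-3, a factor of gut mesenchyme and spleen (chr19:43686565-43686814, plus strand, 14 CpG), and Tbx10 (chr19:3992502-3992751, plus strand, 3 CpG) had a peak in control alone that covered this sequence. Six2, which maintains nephron progenitors (chr17:86087595-86087844, minus strand, 26 CpG), had a peak in Taf4-inactivated alone that covered it. Tbx22, a factor of palate formation (chrX:104863053-104863302, plus strand, 1 CpG), had no peak in either list.
Tbx3: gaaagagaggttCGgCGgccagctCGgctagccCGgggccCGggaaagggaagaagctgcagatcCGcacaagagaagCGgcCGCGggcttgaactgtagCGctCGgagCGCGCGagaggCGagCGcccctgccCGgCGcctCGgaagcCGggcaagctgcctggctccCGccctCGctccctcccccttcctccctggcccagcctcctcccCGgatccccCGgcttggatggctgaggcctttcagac
Nkx2-3: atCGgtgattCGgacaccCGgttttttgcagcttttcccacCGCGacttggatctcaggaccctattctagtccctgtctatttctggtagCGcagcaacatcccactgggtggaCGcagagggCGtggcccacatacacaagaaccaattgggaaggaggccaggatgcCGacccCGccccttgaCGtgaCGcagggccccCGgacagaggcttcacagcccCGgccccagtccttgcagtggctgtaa
Tbx10: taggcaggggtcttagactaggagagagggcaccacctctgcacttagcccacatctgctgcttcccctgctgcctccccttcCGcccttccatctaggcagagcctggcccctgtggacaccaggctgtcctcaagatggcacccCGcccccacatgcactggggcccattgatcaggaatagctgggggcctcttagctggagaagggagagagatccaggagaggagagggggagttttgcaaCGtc
Six2: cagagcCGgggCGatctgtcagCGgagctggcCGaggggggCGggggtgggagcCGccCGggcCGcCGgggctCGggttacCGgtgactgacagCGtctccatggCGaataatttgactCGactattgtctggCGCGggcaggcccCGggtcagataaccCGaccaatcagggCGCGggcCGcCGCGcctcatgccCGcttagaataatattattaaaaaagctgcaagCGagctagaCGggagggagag
Tbx22: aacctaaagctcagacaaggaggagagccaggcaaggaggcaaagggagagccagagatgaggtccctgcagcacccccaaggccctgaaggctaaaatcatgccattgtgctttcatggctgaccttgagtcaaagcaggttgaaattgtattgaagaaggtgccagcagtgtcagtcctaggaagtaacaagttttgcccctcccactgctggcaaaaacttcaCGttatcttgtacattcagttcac

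A start site peak, meaning a peak within 1 kb of any annotated start site of the gene, was found at 63 of 69 members in control and at 52 in Taf4-inactivated. These counts are 91.3% (exact Clopper-Pearson 95% interval 82.0 to 96.7) and 75.4% (63.5 to 84.95). The intervals cover counting error only, and members that lie in clusters are not independent. Over all protein-coding genes the shares were 68.4% in control and 65.6% in Taf4-inactivated, and over the 10075 genes with a CpG-rich promoter, here a CpG observed/expected ratio of at least 0.6, they were 95.4% and 94.6%. The members thus had start site peaks more often than protein-coding genes at large in both lists as deposited, by the counts alone. They were below the CpG-rich genes in both. The excess over protein-coding genes at large depended on weak peaks being counted. At −log10 q 2 or more it held in control, at 69.6% against 60.7%, and turned in Taf4-inactivated, at 55.1% against 60.3%. With the 40000 peaks of highest fold in each list it turned in both, at 47.8% against 53.65% and 33.3% against 55.5%. Between the lists as deposited, the gap in the members' shares was wider than in either comparison set.

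By the state of the promoter, both lists held a start site peak of 50 members, or 72.5%, beside a background of 62.7% of protein-coding genes, and 13, or 18.8%, had one in control only, beside 5.68%. Another 2, or 2.90%, had one in Taf4-inactivated only, beside 2.88%, and 4, or 5.80%, had none, beside 28.7%. Of the 63 control peaks, 79.4% (95% interval 67.3 to 88.5) had a counterpart in the Taf4-inactivated list, against 91.7% for all protein-coding genes and 97.8% for the CpG-rich ones. In the opposite direction, 50 of the 52 members of the Taf4-inactivated list, or 96.2%, were also in the control list, against 95.6% for all protein-coding genes. The shortfall was thus in 1 direction, from the library with the higher background level to the other, in the lists as deposited.

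This order depended on which peaks were counted. In a comparison added after the data were seen, both lists were limited to the same number of peaks, the 71282 of highest fold. Then 49 members had a start site peak in control and 52 in Taf4-inactivated, with 6 in control only and 9 in Taf4-inactivated only, the opposite order, and 87.8% of the control peaks had a counterpart, against 93.4% for all protein-coding genes, of which 923 were in control only and 1597 in Taf4-inactivated only. With peaks of −log10 q 2 or more, 15 members were in control only and 5 in Taf4-inactivated only, while all protein-coding genes stood at 1111 and 1015. With the 40000 peaks of highest fold in each list the members stood at 16 and 6 and all protein-coding genes at 1089 and 1510. With a −log10 q of at least 5, 3 members were in control only and 6 in Taf4-inactivated only, and all protein-coding genes turned likewise, to 315 and 2771. The share of control peaks with a counterpart was lower for the members than for all protein-coding genes in each of these 4 comparisons, at 68.75% against 91.8%, 51.5% against 90.9% and 50% against 96.02% in the last 3.

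**Figure D1:**
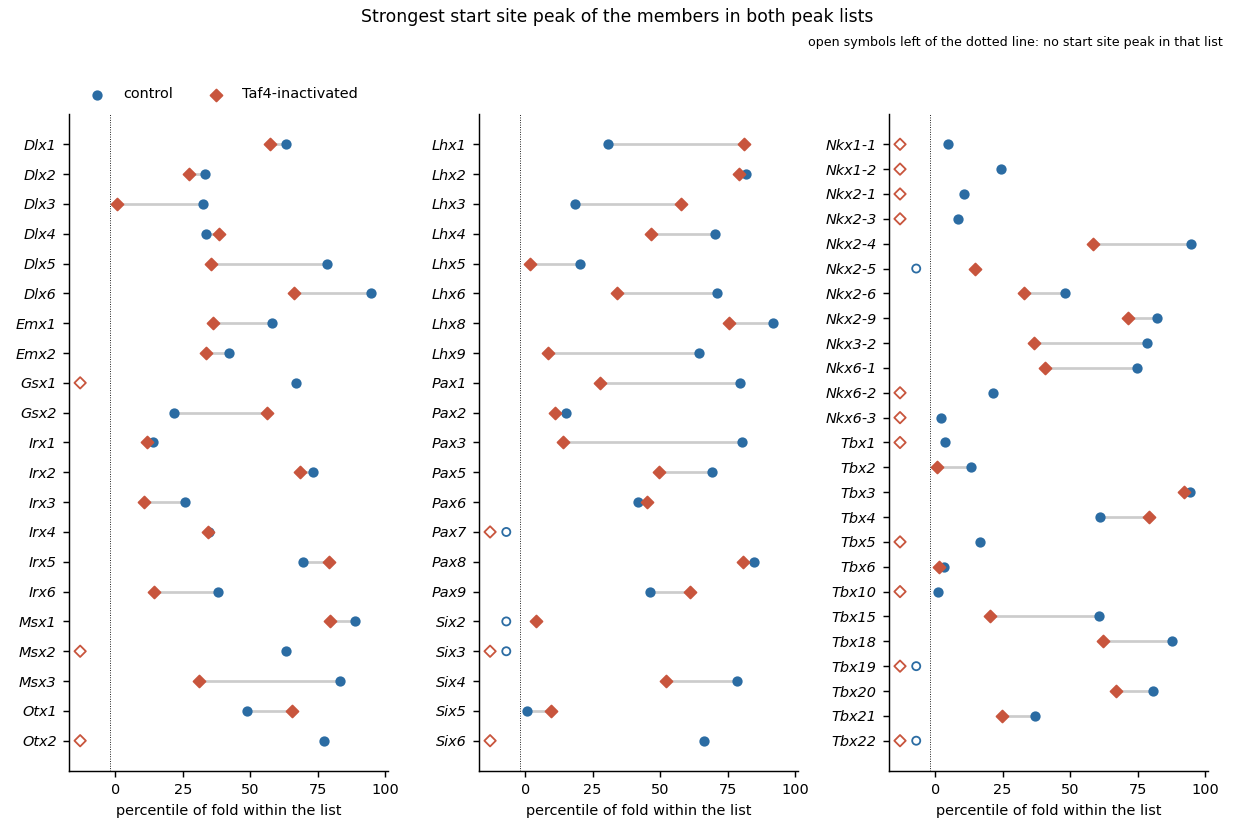
Percentile of the fold of each member's strongest start site peak within its own list (x axis, 0 is the weakest peak and 100 the strongest), for control (blue circles) and Taf4-inactivated (red diamonds), 1 library each. Open symbols left of the dotted line stand for members with no start site peak in that list, and a pair of members is not plotted. Of the 48 plotted members with both values, the Taf4-inactivated one is lower in 38.

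The strength of a peak was read as the percentile of its fold within its own list, since fold is relative to the background of the same library. The median percentile of the members' start site peaks was 60.7 in control, with a range from 0.671 at Six5 to 94.9 at Nkx2-4, and 36.5 in Taf4-inactivated, from 0.717 at Dlx3 to 92.1 at Tbx3. The corresponding medians over all protein-coding genes were 86.5 and 81.5. The members therefore had peaks at most promoters in control, and these peaks were of moderate rank: 4 of 63 were in the top 10% of the control list, or 6.35%, against 41.8% of the start site peaks of all protein-coding genes, and 1 of 52, or 1.92%, against 32.1% in Taf4-inactivated. In width they did not fall short, with a median of 1186 bp in control and 987.5 bp in Taf4-inactivated against 1050 bp and 980 bp. The widest in control was at Six4, a factor of muscle and kidney development, at 2944 bp, and the widest in Taf4-inactivated at Nkx3-2, a factor of the axial skeleton, at 2960 bp.

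Among the 50 members with a start site peak in both lists, the percentile was lower in Taf4-inactivated in 40, or 80%, and higher in 10. The background was 65.8% lower over the 13979 protein-coding genes with both. The median difference, Taf4-inactivated minus control, was −13.1 percentile points for the members and −2.77 for all such genes. Ranked by −log10 p in place of fold, the median was −20.3 for the members and −2.66 for all genes, with 40 members lower again, and 38 members were lower by both rankings. Ranked by width, with the widest start site peak taken in each list, the median of the members was 0.186. The start site peak of highest fold was wider in control in 34 members and wider in Taf4-inactivated in 16. The lists differ in length, and a list without its weakest peaks ranks the rest lower. With both lists limited to 71282 peaks, the median difference was −6.87 for 43 members and −1.23 for 13024 protein-coding genes, and 27 members, or 62.8%, were lower, against 57.2%. The direction was kept and the size was smaller. A difference of at least 25 points downward was seen in 16 members, or 32%, against 9.08% of all genes, whereas 3, or 6%, were higher by as much, against 5.94%. The order of the members was partly kept, with a Spearman rho of 0.581 across the 50 members and 0.811 across all 13979 genes, given as descriptions across genes of the same pair of libraries.

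Pax3, Lhx9, Msx3, Pax1 and Dlx5 were among the members with the largest differences downward. Pax3, which specifies muscle progenitors and neural crest, stood at percentile 80.1 in control (fold 2.30, chr1:78193138-78193794) and 13.85 in Taf4-inactivated (fold 2.13), a difference of −66.3. Lhx9, a factor of gonad formation, stood at 64.4 and 8.27. Msx3 stood at 83.2 and 31.1, Pax1, which acts in the sclerotome that forms the vertebrae, at 79.5 and 27.8, and Dlx5, a factor of jaw and bone formation, at 78.3 and 35.5. All 5 ranked above the median of the members in control and were still called as peaks in Taf4-inactivated. Fold itself was similar in both lists for them, at 2.12 and 2.07 for Lhx9, 2.29 and 2.235 for Pax1, and 2.27 and 2.295 for Dlx5, while the folds of all peaks spanned 1.32 to 10.4 in control and 1.40 to 14.2 in Taf4-inactivated. Only ranks within a list were therefore compared.

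Differences upward were fewer. Lhx1, needed for head and kidney formation, stood at 30.6 in control and 80.9 in Taf4-inactivated, but the strongest peaks in the lists were different ones, at chr11:84338418-84339131 in control and chr11:84336133-84336427 in Taf4-inactivated. Lhx3, a pituitary and motor neuron factor, stood at 18.3 and 57.8, with peaks that began at nearly the same base (chr2:26063670-26064132 and chr2:26063671-26064205). Gsx2, which patterns the ventral forebrain, stood at 21.7 and 56.4. Tbx4, the hindlimb T-box gene, stood at 61.2 and 79.1 by fold, at peaks that do not overlap, and was 4.44 points lower by −log10 p. Otx1, a forebrain factor, stood at 48.9 and 65.4, and Pax9, a factor of thymus and teeth, at 46.25 and 61.0, again at separate peaks. Of the 50 members with both, the strongest peaks of the lists overlapped in 45. Of the 10 members with a higher fold percentile, 8 were also higher by −log10 p.

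The strongest start site peaks of the group kept a high rank in a few members. Tbx3 ranked at percentile 94.3 of the control list (fold 2.835, −log10 q 11.1, chr5:120119808-120121129) and 92.1 in Taf4-inactivated (fold 3.86, −log10 q 20.9, chr5:120119709-120121152). Msx1, a target of BMP signalling in tooth and limb, stood at 88.75 and 79.3. Lhx2, a regulator of forebrain and eye, stood at 81.9 and 79.3, and Pax8, the thyroid and kidney factor, at 84.9 and 80.8, the latter at another of its start sites. These members were high in both lists. By contrast, Nkx2-4 stood at 94.9 and 58.3, Dlx6, the neighbour of Dlx5, at 94.8 and 66.2, Tbx18, a factor of epicardium and ureter mesenchyme, at 87.8 and 62.2, and Lhx8, which specifies cholinergic neurons, at 91.8 and 75.6.

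The 13 members with a start site peak in control only, in the lists as deposited, were mostly weak there. Their percentiles had a median of 16.6, 9 of them lay under 25, and 8 had a −log10 q under 2, with 2.93 as the highest. Otx2, which specifies forebrain and retina, was the strongest at 77.3 (fold 2.26, chr14:49285326-49286045), followed by Gsx1 at 67.0, Six6, an eye field factor, at 66.2 and Msx2, which acts in skull and skin appendages, at 63.2. The T-box genes among them were Tbx5, the forelimb and heart factor, at 16.6, Tbx1, a factor of the pharyngeal arches, at 3.54, and Tbx10 at 0.973. Nkx genes made up 6 of the 13. Nkx1-2 stood at 24.5, Nkx6-2 at 21.4, Nkx2-1, the thyroid and lung factor, at 10.6, Nkx2-3 at 8.50, Nkx1-1 at 4.66 and Nkx6-3 at 2.11. The counts that follow were not made for the other protein-coding genes with a start site peak in control only. The peak covered the 5′-most start site in 5 of the 13. A Taf4-inactivated peak lay within 5 kb of the control peak in 8 of them, and at Tbx1 it overlapped the control peak while lying more than 1 kb from a start site, whereas at Gsx1 the nearest was 46.2 kb away and at Nkx6-2 22.1 kb away.

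The values bearing on depth, as read from the background level, were as follows. When the control peaks were scaled to the background level of the Taf4-inactivated library, 8 of the 13 control-only members, or 61.5%, lay below the lowest −log10 p in that list, 2.87, and 7 of the 50 members with both peaks, or 14%, did so. For all protein-coding genes the shares were 58.1% of 1266 and 7.47% of 13979. The control-only members thus resembled control-only genes at large in this respect. Otx2, Gsx1, Six6, Msx2 and Nkx6-2 were the 5 whose scaled −log10 p lay above the lowest one, at 3.54, 3.55, 2.97, 3.35 and 3.06. Depth and genotype cannot be told apart here.

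Both members with a peak in Taf4-inactivated only were weak in that list. Nkx2-5, the cardiac homeobox gene, stood at percentile 14.7 (−log10 q 1.46, chr17:26978275-26978942) and the nearest control peak was 1.735 kb away. Six2 stood at 3.85 (−log10 q 1.57, chr17:86087144-86088549), with the nearest control peak 15.45 kb away. Pax7, Six3, Tbx19 and Tbx22 had no start site peak in either list. Pax7 marks satellite cells of muscle, Six3 acts in the forebrain, and Tbx19 is the corticotrope factor of the pituitary.

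Grouped by strength in control, the share of members found again was lowest in the weakest band of the list. Of 17 members under percentile 25, 8 were found again, or 47.1%, against 73.25% of all protein-coding genes and 89.7% of the CpG-rich ones in that band. From 25 to 50, 13 of 13 were found again, against 74.5%, from 50 to 75 12 of 15, or 80%, against 86.0%, and above 75 17 of 18, or 94.4%, against 98.3%. The members were thus above all protein-coding genes in 1 band of 25 percentile points and below them in 3, with 13 to 18 members in each. With 71282 peaks in both lists the order in the weakest band turned, with 9 of 11 members found again, or 81.8%, against 72.9% of all protein-coding genes, and 21 members from 50 to 75 stood at 81.0% against 88.9%.

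**Figure D2:**
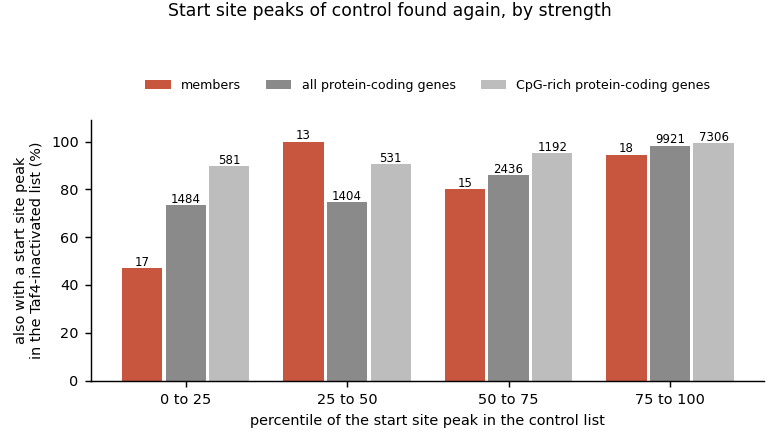
Share of genes with a control start site peak that also had one in the Taf4-inactivated list (y axis, percent), by the percentile of the control peak (x axis, 4 bands of 25 points), for members, all protein-coding genes and CpG-rich protein-coding genes. Numbers above the bars are genes, and the members' bars run from 47.1% in the weakest band to 100% in the next.

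The difference in percentile also varied by band. Members above percentile 75 in control were lower in Taf4-inactivated in 17 of 17 pairs, against 7406 of 9752 protein-coding genes of that band. The members' median there was −26.3 points, against −3.82 for all protein-coding genes. From 50 to 75 the medians were −22.8 and −2.14, from 25 to 50 they were −5.91 and 9.78, and under 25 −2.11 and 17.4. Values chosen for being high or low in one list tend to move toward the middle in the other. The protein-coding genes in the same band show that movement only roughly, since strength within a band was not matched. Above percentile 75 in control, 4 of 18 members stood above 90, against 6366 of 9921 protein-coding genes. The members' median was the lower one in each of the 4 bands, and the part of starting strength in this was not tested. With 71282 peaks in both lists the medians of members and of all protein-coding genes were 12.0 and 33.8 under 25, 13.0 and 17.1 from 25 to 50, −29.3 and 2.50 from 50 to 75, and −8.34 and −2.29 above 75, with 6 to 17 members in a band. Grouped by their Taf4-inactivated percentile instead, the medians of members and of all protein-coding genes were closer, at −18.4 and −14.0 under 25, −21.9 and −17.3 from 25 to 50, −8.40 and −9.63 from 50 to 75, and −2.41 and −1.54 above 75. In that grouping the members were found in control in 15 of 17, 15 of 15, 12 of 12 and 8 of 8 cases. For all protein-coding genes the shares were 83.05%, 88.8%, 94.2% and 99.03%, in the same order.

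By family, the Dlx, Irx, Lhx and Emx genes had, in both lists, a start site peak at each of their 6, 6, 8 and 2 members. The Nkx family, at the other end, had 12 of 13 in control and 7 in Taf4-inactivated, and the 6 Nkx genes with both were all lower in Taf4-inactivated, with a median of −35.5 points. The Tbx genes had 11 and 8 of 13, with 7 of the 8 pairs lower and a median of −12.5. Pax genes had 7 of 8 in both lists, sine oculis genes 4 of 6 in both lists but at only 3 shared genes, Msx genes 3 and 2 of 3, and Otx and Gsx genes 2 and 1 of 2 each. The families are small, and the differences between them were not tested.

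Within the Irx family, Irx5 had percentiles of 69.5 and 79.3 and Irx3 of 26.0 and 10.6, control first. Both are heart conduction and limb genes that lie in 1 cluster on chromosome 8. Irx5 shares its start site region with the coding gene 4933436C20Rik, as Six5 does with Dmpk and Six6 with 4930447C04Rik, so the peaks there cannot be assigned to 1 gene. Without these 3 members, 60 of 66 had a start site peak in control and 50 in Taf4-inactivated, and the median difference was −14.3.

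Other well-known members gave these values. Pax6, a factor of eye, pancreas and enteroendocrine cells, had percentiles of 41.6 and 45.1, control first. Tbx21, also named T-bet, the factor of type 1 helper T cells, was at 37.1 and 24.7. Pax6 therefore differed by 3.48 points between the lists and Tbx21 by −12.4.

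**Figure D3:**
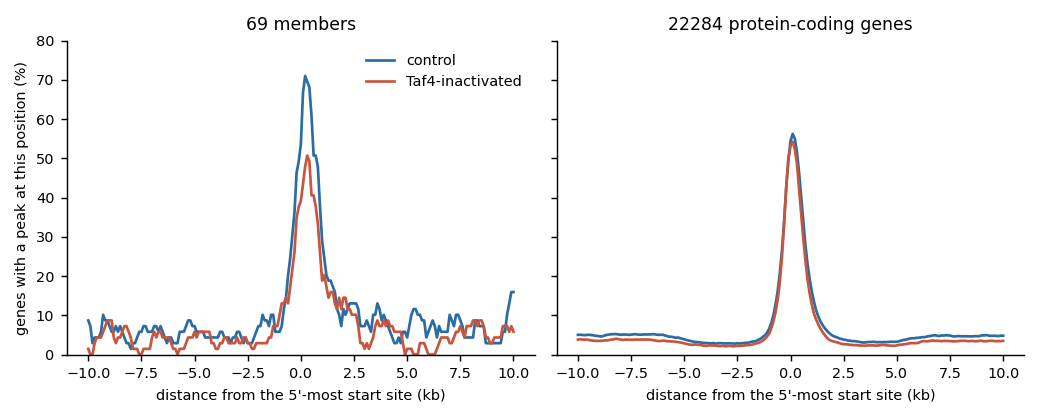
Share of genes with a peak at each distance from the 5′-most start site (x axis in kb, y axis in percent) in control (blue) and Taf4-inactivated (red), for the 69 members and for all 22284 protein-coding genes. The members' lines reach 71.0% in control and 50.7% in Taf4-inactivated, whereas the lines of all protein-coding genes nearly coincide.

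The peaks of the members lay slightly downstream of the 5′-most start site. In control the share of members under a peak was 53.6% at the start site and highest, 71.0%, at 200 bp downstream of it, and in Taf4-inactivated it was 39.1% at the start site and highest, 50.7%, at 300 bp. Over all protein-coding genes it was 54.4% and 53.2% at the start site and highest at 100 bp downstream, at 56.3% and 54.25%. At 1 kb downstream the members stood at 29.0% in control and 18.8% in Taf4-inactivated, against 16.1% and 12.8%, so more of the members were under a peak at that distance than of protein-coding genes at large.

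Members that lie close together did not always share a state. Of the 20 with another member within 200 kb, 15 had a peak in both lists, 3 in control only, 1 in Taf4-inactivated only and 1 in neither, against 35, 10, 1 and 3 of the other 49. The Dlx pairs, Dlx1 with Dlx2, Dlx3 with Dlx4 and Dlx5 with Dlx6, had peaks in both lists at both genes. In the Tbx3 and Tbx5 pair on chromosome 5, Tbx3 had a peak in both lists and Tbx5 in control only. In the cluster on chromosome 12 that holds Nkx2-1, Nkx2-9 and Pax9, Nkx2-1 alone lacked a Taf4-inactivated peak, and Nkx2-9 had percentiles of 82.2 and 71.3, control first. Six6 likewise stood apart from Six4, a neighbour on the same chromosome.

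The promoters of the members held more CpG than protein-coding promoters at large, read over the 250 bases before and 50 bases after the 5′-most start site. The median CpG observed/expected ratio was 0.635 against 0.535, and 38 of 69, or 55.1%, reached 0.6, against 45.2%. By state, the median was 0.665 for the 50 members with a peak in both lists, from 0.208 at Dlx1 to 1.01 at Nkx2-4, and 0.565 for the 13 in control only, from 0 at Tbx5 to 0.972 at Nkx6-2. The ranges overlapped nearly whole. Among all protein-coding genes the same states differed more, with 0.737 for both lists and 0.285 for control only. Of the 35 CpG-rich members with a control peak 82.9% were found again, and of the 28 others 75%.

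**Figure D4:**
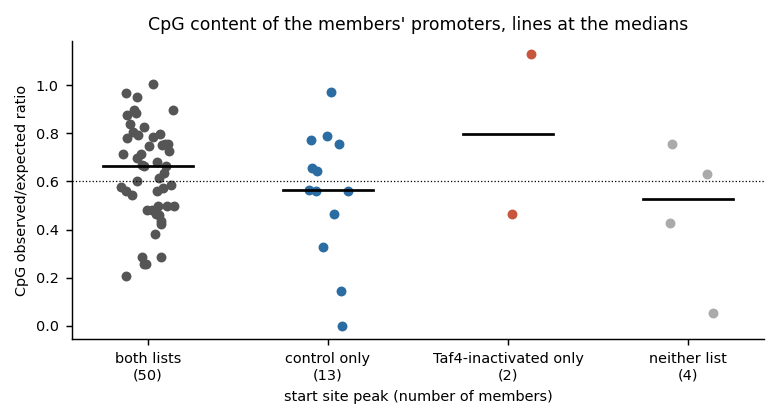
CpG observed/expected ratio of each member's promoter (y axis) by the list or lists that held its start site peak (x axis), with a line at each median and a dotted line at 0.6. The points of members with peaks in both lists and in control only overlap, with medians of 0.665 and 0.565.

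Sequence motifs were counted as letters on both strands of the same windows of 300 bases, and none of the 8 motifs lies within another. The CCAAT box was found in 38 member promoters, or 55.1%, against 38.0% of all coding promoters, and the GC box GGGCGG in 40, or 58.0%, against 43.4% of all and 72.7% of the CpG-rich ones. TAATTA, a core of homeodomain sites, was in 7.25% against 4.86%, TGANTCA, read by AP-1, in 7.25% against 6.93%, TGATAA, read by GATA factors, in 7.25% against 8.28%, the TATA box letters TATAAA in 10.1% against 13.45%, and the T-box motif AGGTGTGA in 1.45% against 1.11%. The HNF4 motif CAAAGTCCA was in 0 member promoters and in 0.453% of all. Only the CCAAT and GC boxes were thus common, and a match of letters is no sign that a factor binds.

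Other developmental regulators, outside the naming rule, also had lower ranks in Taf4-inactivated. Of 51 other homeobox and T-box genes, 43 had a start site peak in control and 42 in Taf4-inactivated, with 5 in control only and 4 in Taf4-inactivated only, and the median difference was −11.1 points. Of 39 Hox cluster genes the counts were 34 and 30, with 5 and 1, and the median difference −20.2. Of 42 forkhead genes they were 40 and 37, with 4 and 1, and the median difference −18.0. The lower rank in Taf4-inactivated was thus not particular to the members. In the peak lists as deposited, their share found in control only, 18.8%, was the highest of the 4 gene lists. The others were at 9.80%, 12.8% and 9.52%. The members in control only numbered 15 at −log10 q 2 or more and 16 among the 40000 peaks of highest fold. They numbered 6 with peak lists of equal length and 3 at −log10 q 5 or more. The other gene lists were not recounted under these peak choices, so whether the order holds there was not tested. No difference between the gene lists was tested.

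Peaks away from the start sites, in the gene body plus 10 kb on either side, numbered 207 for the members in control and 154 in Taf4-inactivated. That is 3 and 2.23 per gene, against 2.33 and 1.82 per protein-coding gene, and 7.73 and 5.76 per 100 kb, against 4.37 and 3.41. The windows of the members were the shorter ones, at a median of 26.7 kb against 35.5 kb. Each peak was counted once, also where the windows of several genes overlap, so overlap of windows lowers these rates. How far that accounts for the lower rates of all protein-coding genes was not tested. Of the control peaks 58 overlapped exons, 59 introns and 90 neither, and of the Taf4-inactivated ones 48, 46 and 60. A start site of another gene lay within 1 kb of 20 and 16 of them, or 9.66% and 10.4%, against 14.7% and 16.5%. They ranked low, with a median percentile of 36.65 in control and 26.1 in Taf4-inactivated against 43.7 and 46.1 for such peaks of all protein-coding genes. In the top 10% of their list were 6 of 207, or 2.90%, and 4 of 154, or 2.60%, against 6.57% and 7.50%.

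A partner, meaning a peak of the other list that overlapped by at least 1 bp, was found for 52.7% of the control peaks (95% interval 45.6 to 59.6), beside a background of 44.6%, and for 69.5% of the Taf4-inactivated peaks (61.6 to 76.6), beside 57.6%. Peaks with a partner were the stronger ones, with a median percentile of 44.4 in control and 32.9 in Taf4-inactivated, against 25.8 and 18.0 for those without, as over all protein-coding genes, at 59.8 and 56.5 against 34.8 and 35.4. The control peaks without a partner numbered 98 and the Taf4-inactivated ones 47. When both peaks had to overlap by 50% of their length, the shares were 29.0% and 39.0%. With 71282 peaks in both lists, 57.5% of 127 control peaks and 46.1% of 154 Taf4-inactivated peaks had a partner.

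**Figure D5:**
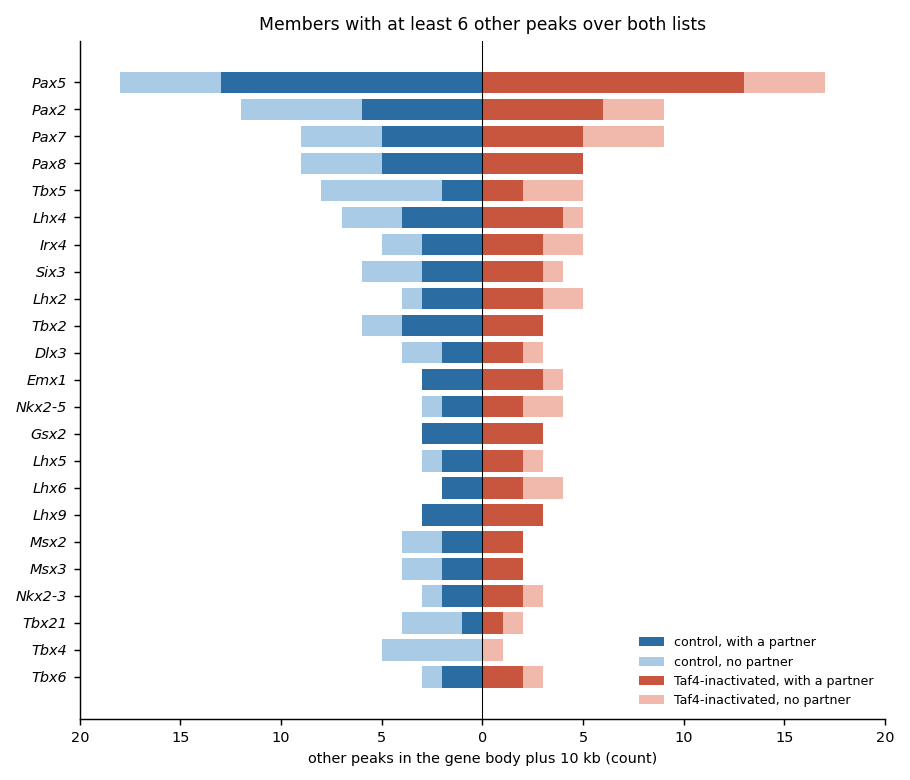
Number of other peaks in the gene body plus 10 kb (x axis) for the members with at least 6 over both lists, control to the left and Taf4-inactivated to the right, dark where a peak of the other list overlapped and light where none did. Pax5 leads with 18 peaks in control and 17 in Taf4-inactivated, and Tbx4 has 5 and 1 with no partner.

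Pax genes held the most. Pax5, the B cell identity factor and a long gene, had 18 other peaks in control and 17 in Taf4-inactivated, and 13 were shared. Pax2, the kidney and eye factor, had 12 and 9 with 6 shared, and Pax8 9 and 5, where each of the 5 Taf4-inactivated peaks had a partner. Pax7 had no start site peak in either list and yet held 9 and 9, of which 5 were shared. Outside that family, Tbx5 had 8 and 5 with 2 shared and Lhx4, a pituitary factor, 7 and 5 with 4 shared. At Tbx4 the 5 control peaks and the 1 Taf4-inactivated peak did not overlap, and neither did the 1 control peak and 4 Taf4-inactivated peaks at Emx2, a factor of the cerebral cortex. Irx4, a gene of the heart ventricle, had 5 and 5 with 3 shared. No other peak was found at Nkx2-4, Six2, Six4 and Tbx22, of which Tbx22 was the only member without a peak of any kind.

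Few of these other peaks were strong. In control 6 were in the top 10%. A peak in an intron of Pax3 (chr1:78137207-78137721) stood at percentile 97.8, and its partner in Taf4-inactivated at 58.6. A peak between genes near Irx4 (chr13:73416662-73417105) stood at 96.3 with a partner at 81.75, and one downstream of Six6 (chr12:74046509-74047199) at 96.3 with a partner at 60.5. Another near Lhx9 stood at 93.6 with a partner at 43.0. The other two, at Lhx1 and Msx3, lie at a start site of another gene and stood at 97.6 and 94.6, with partners at 97.7 and 93.2. These 6 were picked for their rank in control, so a lower rank of a partner is no finding. In Taf4-inactivated, a peak without a partner (chr7:139777246-139777704) stood at percentile 97.9, with a −log10 q of 15.9. It lies in an intron of Fgfr2, a fibroblast growth factor receptor gene, 13845 bp from the start of Nkx1-2, and the nearest control peak was 3608 bp away. This peak was chosen after its values were seen, and which of the 2 genes it belongs to cannot be told apart. The 300 bases at its centre (mm9, chr7:139777326-139777625, plus strand, CpG in capitals) are shown because it was the strongest unpartnered site, and none of the 8 motifs searched was in them.
Peak in an intron of Fgfr2: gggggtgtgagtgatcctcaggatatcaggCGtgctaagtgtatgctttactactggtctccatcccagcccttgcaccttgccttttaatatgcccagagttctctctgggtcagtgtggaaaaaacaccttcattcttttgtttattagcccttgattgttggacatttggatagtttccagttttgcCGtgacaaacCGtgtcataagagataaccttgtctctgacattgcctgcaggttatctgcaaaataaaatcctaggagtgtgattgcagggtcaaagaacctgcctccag

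At the centres of the other peaks, the GC box was found in 28.5% of the control and 26.0% of the Taf4-inactivated peaks against 14.0% and 16.0% of such peaks of all protein-coding genes. TGANTCA was found in 7.25% and 7.79% against 9.69% and 12.7%, and TGATAA in 5.31% and 5.19% against 8.02% and 10.3%. TATAAA was found in 3.38% and 5.19% against 8.19% and 9.83%, the T-box motif in 1.45% and 3.90% against 1.80% and 1.73%, and TAATTA in 3.38% and 2.60% against 3.08% and 3.72%. The other peaks of the members thus more often held the GC box than those of protein-coding genes at large, by the counts alone. They less often held the TATA, AP-1 and GATA letters. The base composition of the peaks was not matched, and its part in this was not tested.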

How the data were processed

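ATAC-seq was performed on 1 control and 1 Taf4-inactivated enteroid library, grouped by the genotype in the labels. The authors mapped uniquely aligning reads to mm9 with Bowtie (version 1.0.0 in the submitters' processing notes) and ran MACS2 2.1.1 in broad mode on either library by itself, with shifted reads extended to a fixed length. Treatment of duplicate and mitochondrial reads was not given in the sources used here, and neither were read numbers. For each peak the deposited fold is the enrichment over the background of the same library, the deposited −log10 p and −log10 q are averages over the peak, and the deposited score, the −log10 q times 10 without its decimals, was not used further. The lowest −log10 q was about 1 in both lists.

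Peaks were assigned to genes of the GENCODE vM1 annotation of the same assembly, with overlapping records of 1 symbol joined. A start site peak lay within 1 kb of any start site, and other peaks overlapped the gene body plus 10 kb. The start site peak with the highest fold represented a gene. Shares carry exact Clopper-Pearson 95% intervals, for counting error only. The background level was solved from fold and p of each peak and its 5th percentile taken among the 10% of peaks with the smallest width. The overlap rules, the state of a gene, the choice of other peaks and the ratio of background levels were tested on simulated data. These were 6 checks, with 0 wrong answers, and the simulated libraries differed in depth alone. Ranks, sequence counts and the scaling of p were not tested in this way. Python 3.11.15, pandas 2.3.3 and scipy 1.17.1 were used.

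The members, comparison lists and marker lists were chosen with earlier results of these data known. The genes named were those with a start site peak in 1 list, the 6 highest in each list, the 6 largest differences in each direction, the 6 with most other peaks in all and without a partner in each list, those without any peak, and 10 well-known members. A pair of members that this rule names is counted in the totals but not reported here by name. The alternatives were stricter peak thresholds, other ranks, distances, windows and overlaps, and lists of equal length, which was added after the data were seen.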

Additional observations from a re-analysis of the deposited data

How the results depend on the processing

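No paired analysis was possible because each genotype had a single library, so no replicate could be left out either. Of 91 alternatives, 47 gave a value within 1.5 times a reported count or within the 95% binomial interval of a reported share or median, 43 moved it further and 1 turned its direction: ranked by width, the median percentile difference was 0.186 in place of −13.1. Other ranks moved the median percentile, in control to 70.9 by −log10 p, 83.7 by width, 36.0 among start site peaks of protein-coding genes and 69.8 over pairs that overlap by 50% of both peaks, and in Taf4-inactivated to 50.7 by −log10 p, within its interval of 27.8 to 56.4, 83.1 by width and 19.7 among start site peaks. At −log10 q 2 or more, members with a start site peak in neither list numbered 16 and in Taf4-inactivated only 5. At −log10 q 5 or more, 6 members had one in control, or 8.70%, and 9 in Taf4-inactivated, or 13.0%, against 35.5% and 46.5% of all protein-coding genes. Of the members, 3 had one in control only, 6 in Taf4-inactivated only and 57 in neither. With the 40000 peaks of highest fold in each list, the members' counts were 33 in control, 23 in Taf4-inactivated, 6 in Taf4-inactivated only and 30 in neither. The first 2 counts are 47.8% and 33.3%, against 53.65% and 55.5% of all protein-coding genes. Within 5 kb of a start site, 5 were in control only, 1 in Taf4-inactivated only and 1 in neither. Other peaks in control numbered 90, 11 and 61 at these 3 thresholds, 91 in the gene body alone and 348 with 25 kb on either side, and in Taf4-inactivated 75, 18, 52, 75 and 257. The share with a partner was 41.1%, 45.45% and 42.6% of the control peaks and 45.3%, 27.8% and 48.1% of the Taf4-inactivated ones at the thresholds, and 29.0% and 39.0% when the overlap had to reach 50% of both peaks. With both lists limited to 71282 peaks by fold, added after the data were seen, 6 members were in control only, 9 in Taf4-inactivated only and 11 in neither, other peaks in control numbered 127, and 46.1% of the Taf4-inactivated other peaks had a partner. Stricter thresholds leave fewer peaks by construction, and the causes of the other shifts were not tested. The excess of control-only members over Taf4-inactivated-only ones held for the lists as deposited, at −log10 q 2 or more and for 40000 peaks per list (16 in control only), and turned for lists of 71282 peaks each and at −log10 q 5 or more. Depth and Taf4 inactivation cannot be told apart.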
